A study of Mus musculus with 8 samples.

Results

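In 64 windows of 1 Mb on chromosomes 1 to 19, peaks of the histone mark H4K20me3 were lost in concentration between wild-type (WT) mouse embryonic fibroblasts (MEF) and MEF labelled KAP1 knockout (KO). The windows were chosen by their numbers of H4K20me3 peaks: midpoints of WT peaks outnumbered those of KO peaks by 8 or more, on a fixed grid of build mm9. These windows were 3.32% of the 1927 windows with an H4K20me3 peak in either genotype, and 2 windows (0.104%) had a gain of 8 or more. They hold 3215 of the 38359 peaks in the 5 deposited lists: 1153 of H4K20me3 in WT and 435 in KO, 1550 of H3K9me3 in WT and 45 in KO, and 32 of KAP1 in WT. The loss itself is therefore described and not tested.

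The series holds chromatin immunoprecipitation (ChIP-seq) of KAP1 in WT cells and of H3K9me3 and H4K20me3 in WT and KO cells, with 1 library for each. The labels give no strain, age, or method of the knockout, and they do not say whether the KO cells are 1 clone or a population. KAP1 was measured here in WT cells, and the absence of the protein from the KO cells was not checked. With 1 library per genotype, every difference below compares 2 libraries and has no replicate check, and genotype and culture cannot be told apart. The files give no read depth, and where a peak is missing from a list, the mark may still be present below the threshold of the caller.

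H4K20me3, trimethylated lysine of histone H4, is a mark of compact chromatin that is known from pericentromeric and telomeric repeats and from silenced retrotransposons. It is written by SUV4-20H enzymes, which HP1 proteins bound to H3K9me3 bring to chromatin. KRAB zinc finger proteins bring the corepressor KAP1, also called TRIM28, to their DNA targets, and KAP1 recruits the H3K9 methyltransferase SETDB1. In this textbook order, KAP1 lies upstream of H3K9me3, and H3K9me3 upstream of H4K20me3.

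The windows made up 2.72% of the 2357 windows with any peak on chromosomes 1 to 19, and they held 763 of the 3825 WT H4K20me3 peaks there that had no KO peak over at least 1 bp, or 19.9%. Such peaks are called lost, and the others kept. Within the windows 390 of 1153 WT peaks were kept (33.8%, exact Clopper-Pearson 95% interval 31.1 to 36.6%). Outside the windows 6889 of 9951 were kept (69.2%, interval 68.3 to 70.1%). The share lost over chromosomes 1 to 19 as a whole, windows included, was 34.4%. All intervals cover counting error over peaks alone, and neighbouring peaks are not independent. Covered length of H4K20me3 fell from 1045 kb in WT (mean peak 906 bp) to 377 kb in KO (mean peak 867 bp), a ratio of 0.361. Outside the windows the ratio was 0.851, from 8.63 Mb with a mean peak of 867 bp to 7.35 Mb with a mean of 892 bp.

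Peak numbers per window ranged from 9 to 32 in WT, with a median of 18, and from 0 to 23 in KO, with a median of 5.5. The loss ranged from 8 to 21 peaks, with a median of 10.5. At the threshold, 12 windows lost exactly 8 peaks and held 10 to 24 WT and 2 to 16 KO peaks. Just outside it, 26 windows lost 7 and held 7 to 37 WT and 0 to 30 KO peaks, so the choice of 8 marks no gap in the data. The number of windows depends on how peaks are counted. It was 13 when peaks within 5 kb of each other were merged and 14 with a score of at least 100. With the WT list cut to its 8673 highest-scoring peaks, as many as the KO list holds on these chromosomes, 15 windows passed. This cut leaves the KO list whole and can only lower a loss, so all 15 are among the 64 by construction. Of the 15, some began at 149 Mb of chromosome 6, at 37, 71, 75 and 87 Mb of chromosome 17, at 27 and 67 Mb of chromosome 13, and at 14 and 71 Mb of chromosome 8. The others began at 125 and 152 Mb of chromosome 2, 8 Mb of chromosome 15, 41 Mb of chromosome 9, 96 Mb of chromosome 10 and 17 Mb of chromosome 16.

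**Figure D1:**
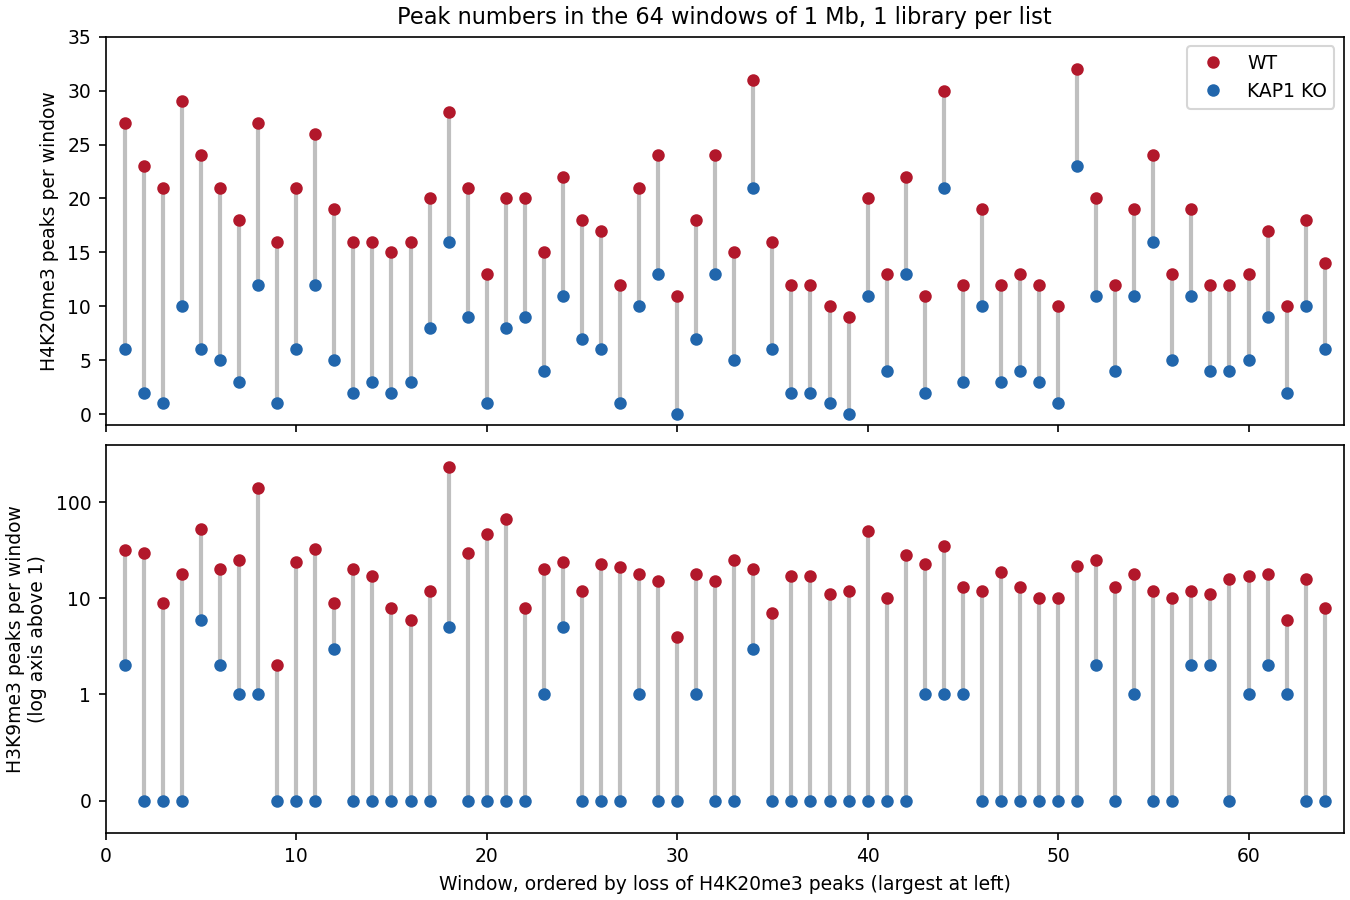
Number of H4K20me3 peaks (upper panel) and of H3K9me3 peaks (lower panel, logarithmic above 1) in each of the 64 windows, ordered from the largest loss of H4K20me3 peaks at left. Red points are the WT list and blue points the KO list, 1 library each, and H3K9me3 is lower in KO in all 64 windows, with no KO peak in 42 of them.

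The 5 windows with the largest loss differed in layout, with lost H4K20me3 peaks intermixed with H3K9me3 peaks in 4 and away from them in 1. The first was at 149 to 150 Mb of chromosome 6, where H4K20me3 went from 27 WT to 6 KO peaks and H3K9me3 from 32 to 2. All its WT H4K20me3 peaks lay within 466 kb, and 13 of the 27 lay on an H3K9me3 peak. Its core was a run of 12 peaks over 33.1 kb (149250455 to 149283532), of which 10 were lost. The peak with the highest WT score of the window (149272910 to 149277985, score 2216) stands in this run and was kept, with a KO score of 509. Under it lay the longest H3K9me3 peak of the window, 4041 bp from 149273755 to 149277795, which was also kept, with a WT score of 1532 and a KO score of 137. Loss and keeping of both marks were thus found side by side in a single run. The highest-scoring lost peak stood apart from the run (149140954 to 149143669, score 626) and lay on H3K9me3.

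At 75 to 76 Mb of chromosome 17, 23 WT peaks were followed by 2 KO peaks, and H3K9me3 went from 30 peaks to 0. A run of 10 peaks over 32.1 kb (75643986 to 75676084) was lost whole, and 4 of its peaks lay on H3K9me3. Its strongest peak (75649714 to 75652716, score 664) covered the longest H3K9me3 peak of the window, 1428 bp with a score of 295, which was lost too. Both kept peaks stood at the far ends of the window's H4K20me3, 834 kb across. The higher-scoring of them (75950510 to 75951333) scored 215 in WT and 191 in KO and lay off H3K9me3.

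The window at 27 to 28 Mb of chromosome 13 was the exception. It went from 21 WT peaks to 1 KO peak although none of the 21 lay on an H3K9me3 peak. Lost peaks here were a median of 61.7 kb from the nearest WT H3K9me3 peak, and the window held 9 H3K9me3 peaks in WT and 0 in KO. The lost peaks formed several small groups, the largest of them a run of 6 over 14.5 kb (27197860 to 27212400). The strongest lost peak (27033840 to 27036086) had a score of 424. The single kept peak (27202755 to 27203706) lay inside the run of 6 and had scores of 269 in WT and 53.9 in KO, near the lowest score of the lists, 50.

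At 71 to 72 Mb of chromosome 17, 29 WT and 10 KO peaks were called, and H3K9me3 went from 18 to 0. Loss was densest at the start of the window, where 10 of the 19 lost peaks lay within 29.6 kb (71075383 to 71104950) and no KO peak of either mark was called. This stretch held the strongest H4K20me3 peak of the window (71078868 to 71080863, score 1331), on H3K9me3, and the longest H3K9me3 peak, 1703 bp with a score of 323. The kept peaks began beyond this stretch and were mixed with the remaining lost ones. The strongest of them (71965430 to 71966745) scored 720 in WT and 1262 in KO.

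At 71 to 72 Mb of chromosome 8, H4K20me3 went from 24 to 6 peaks and H3K9me3 from 53 to 6. Of the 19 lost peaks, 14 lay on H3K9me3, and 9 WT peaks formed a run of 25.7 kb (71732872 to 71758548) that kept 1. The run surrounds an H3K9me3 peak of 6617 bp with a score of 2478 (71749316 to 71755932), which was lost together with the H4K20me3 peak on it (71751103 to 71754315, score 808). A KAP1 peak (71998268 to 71999226, score 64.8) stood 69.1 kb from the nearest WT H4K20me3 peak.

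**Figure D2:**
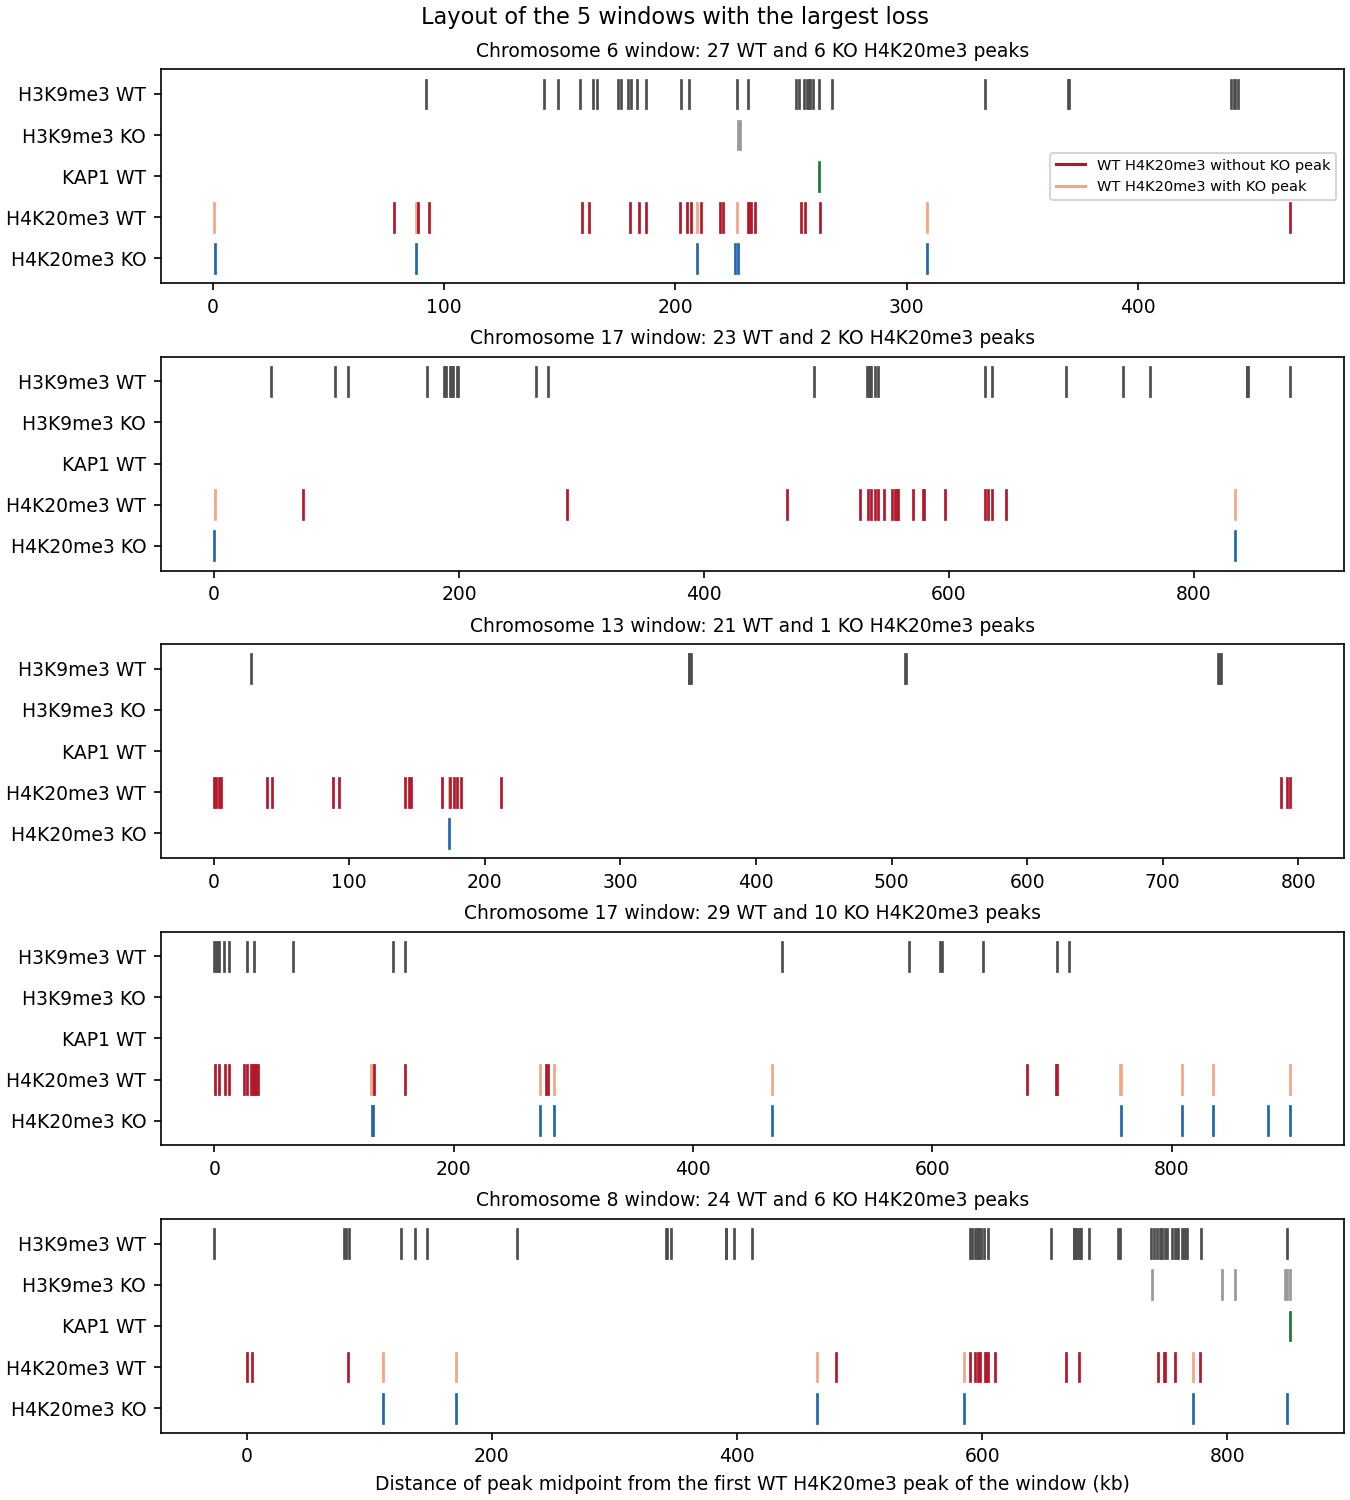
Midpoints of all peaks in the 5 windows with the largest loss, by distance in kb from the first WT H4K20me3 peak of the window. Each line is 1 peak and is not drawn to its length, with WT H4K20me3 peaks in dark red where no KO peak overlaps and in light red where one does. Lost peaks crowd together in runs, and in the chromosome 13 window these runs lie away from H3K9me3.

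The spacing of lost peaks was then measured in all 64 windows. For each window the shortest stretch with at least 50% of its lost peaks was measured and is called its densest stretch. Its length ranged from 3.33 to 266 kb, with a median of 64.2 kb. The same length was not measured for kept peaks or in other windows, so closeness particular to lost peaks is not shown. In 28 windows it was at most 50 kb long, a limit set after the values were seen, and these are called compact. In 42 of the 64 windows no KO H4K20me3 peak was called in the densest stretch, in 61 no KO H3K9me3 peak was, and in 58 a WT H3K9me3 peak was present there. The stretch is defined by its lost H4K20me3 peaks, and 42 of the windows had no KO H3K9me3 peak anywhere, so these counts describe the layout alone.

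Runs of 7 or 8 peaks stood in several compact windows. On chromosome 1 at 81 to 82 Mb there were 9 WT peaks and no KO peak, and 8 of the 9 formed a run of 26 kb (81732072 to 81758100), of which 2 lay on H3K9me3. On chromosome 10 at 96 to 97 Mb the numbers were 12 and 1, with 6 of 11 lost peaks within 11.3 kb. On chromosome 9 at 41 to 42 Mb they were 16 and 2, with a run of 7 over 10.3 kb lost whole. These 3 windows had 12, 21 and 20 WT H3K9me3 peaks, in this order, and none in KO.

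Compact windows of chromosome 17 had runs with and without an H3K9me3 peak in them. At 59 to 60 Mb, 16 WT peaks were followed by 1 KO peak, none of the 16 lay on H3K9me3, and the whole window held 2 H3K9me3 peaks in WT. Its run of 7 over 14.3 kb (59209351 to 59223694) included a lost peak of 4544 bp with a score of 1233 (59217677 to 59222220), and the longest H3K9me3 peak of the window, 930 bp, began just beyond the run at 59224703. At 37 to 38 Mb the numbers were 16 and 3, and a run of 9 over 16.3 kb was lost whole, with 1 of the 9 on H3K9me3. At 6 to 7 Mb they were 16 and 6, with a run of 6 over 21.7 kb that was lost whole and had no H3K9me3 peak in it. At 43 to 44 Mb they were 12 and 2, with 5 of 10 lost peaks within 21.0 kb and no H3K9me3 there. In contrast, at 87 to 88 Mb (21 and 6) the run of 6 over 12.1 kb (87522318 to 87534396) had 5 peaks on H3K9me3 and held 2 KAP1 peaks.

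Further compact windows lay on chromosomes 1, 2 and 3. At 58 to 59 Mb of chromosome 1, H4K20me3 went from 26 to 12 peaks, and a run of 9 over 24.1 kb (58795258 to 58819383) was lost whole, 6 of the 9 on H3K9me3. Its strongest peak (58796009 to 58799164) had a score of 1278, while the strongest kept peak of the window (58448880 to 58450922) had scores of 821 in WT and 709 in KO and lay off H3K9me3. At 6 to 7 Mb of chromosome 1 the numbers were 10 and 1, with 5 of 9 lost peaks within 23.2 kb. These windows had 33 and 11 WT H3K9me3 peaks and none in KO.

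On chromosome 2, the window at 126 to 127 Mb (20 and 9) held a run of 6 over 15.2 kb of which 5 were lost. At 150 to 151 Mb (20 and 11), 10 of 11 lost peaks lay on H3K9me3 and 6 lay within 20.2 kb. At 152 to 153 Mb (22 and 11), 6 of 11 lost peaks lay within 24.7 kb around a KAP1 peak. On chromosome 3, all 6 peaks of a run of 21.9 kb at 57 to 58 Mb (15 and 5) were lost, as were all 6 of a run of 17.1 kb at 152 to 153 Mb (13 and 4). At 108 to 109 Mb (24 and 16), 14 of 24 WT peaks were kept, and 5 of 10 lost peaks lay within 32.2 kb. Loss in this last window was local, with more peaks kept than lost.

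The remaining compact windows had smaller numbers. The shortest densest stretch, 3.33 kb with 4 of 8 lost peaks, was at 128 to 129 Mb of chromosome 8 (12 and 4), where all 4 lay on 1 H3K9me3 peak. It was 5.45 kb at 53 to 54 Mb of chromosome 5 (13 and 5), 7.30 kb at 111 to 112 Mb of chromosome 8 (12 and 3) and 8.35 kb at 38 to 39 Mb of chromosome 16 (14 and 6). On chromosome 15 it was 9.13 kb at 31 to 32 Mb (13 and 5) and 34.5 kb at 100 to 101 Mb (17 and 9). It was 17.3 kb at 106 to 107 Mb of chromosome 12 (12 and 3), and 43.0 kb at 43 to 44 Mb of chromosome 13 (10 and 1). At 25 to 26 Mb of chromosome 16 all 11 WT peaks were lost and no KO peak was called. None of these 11 lay on H3K9me3, from which they were a median of 87.0 kb away, and 6 lay within 34.2 kb.

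In the other 36 windows the lost peaks were more widely placed, and 5 of these windows held 47 or more WT H3K9me3 peaks. At 145 to 146 Mb of chromosome 4, H3K9me3 went from 232 to 5 peaks and H4K20me3 from 28 to 16. All 21 lost H4K20me3 peaks lay on H3K9me3, 11 of them within 206 kb, and 9 KO peaks were new. With the WT list cut to its 8673 highest-scoring peaks, this window held 14 WT and 16 KO H4K20me3 peaks, and no loss remained. At 81 to 82 Mb of chromosome 10, H3K9me3 went from 141 to 1 and H4K20me3 from 27 to 12, with 12 of 16 lost peaks on H3K9me3. At 17 to 18 Mb of chromosome 17, H3K9me3 went from 68 to 0 and H4K20me3 from 20 to 8. At 62 to 63 Mb of chromosome 13, 47 H3K9me3 peaks were followed by 0, and H4K20me3 went from 13 peaks to 1. At 71 to 72 Mb of chromosome 8, described above, H3K9me3 fell from 53 to 6.

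Among the wider windows with fewer H3K9me3 peaks, chromosomes 8, 13, 15 and 16 had the following. At 8 to 9 Mb of chromosome 15, H4K20me3 went from 21 to 5 peaks, and a run of 7 over 16.5 kb was lost whole. At 62 to 63 Mb of chromosome 15 all 15 WT peaks were lost and both KO peaks were new. On chromosome 13 the numbers were 16 and 3 at 67 to 68 Mb, where none lay on H3K9me3, and 12 and 4 at 74 to 75 Mb, where no run was longer than a single peak. The widest-spaced peaks were in the latter, with a median step of 60.3 kb between peak starts. On chromosome 8 they were 18 and 3 at 14 to 15 Mb (densest stretch 107 kb), 31 and 21 at 72 to 73 Mb (86.5 kb), 30 and 21 at 86 to 87 Mb (141 kb), 19 and 10 at 124 to 125 Mb (213 kb), and 19 and 11 at 23 to 24 Mb (59.9 kb). In the windows of chromosome 8 at 72 and 86 Mb, 18 WT peaks each were kept, more than were lost. On chromosome 16 the numbers were 24 and 13 at 17 to 18 Mb (densest stretch 74.9 kb), 18 and 10 at 18 to 19 Mb (125 kb), and 10 and 2 at 14 to 15 Mb (248 kb).

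Wider windows of chromosome 17 ranged from 12 to 32 WT peaks. They had 18 and 7 peaks at 64 to 65 Mb (densest stretch 63.3 kb), 12 and 2 at 44 to 45 Mb (63.1 kb), 20 and 11 at 66 to 67 Mb (166 kb), and 32 and 23 at 56 to 57 Mb (229 kb). The last of these had the most WT and the most KO peaks of all 64 windows. On chromosome 2 there were 20 and 8 peaks at 125 to 126 Mb, where all 6 peaks of a run of 30.4 kb were lost and its end lay on a KAP1 peak. There were 15 and 4 at 148 to 149 Mb (densest stretch 218 kb) and 18 and 7 at 157 to 158 Mb (61.2 kb). On chromosome 3 there were 17 and 6 at 102 to 103 Mb (106 kb), 12 and 4 at 27 to 28 Mb, and 19 and 11 at 94 to 95 Mb (126 kb). The window at 27 Mb of chromosome 3 had the longest densest stretch, 266 kb for 5 of 9 lost peaks.

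The remaining 8 wider windows were on 6 chromosomes. On chromosome 6 the numbers were 21 and 9 at 146 to 147 Mb (densest stretch 150 kb) and 11 and 2 at 37 to 38 Mb (115 kb). On chromosome 10 they were 12 and 3 at 67 to 68 Mb (87.7 kb) and 13 and 4 at 92 to 93 Mb (81.5 kb). At 88 to 89 Mb of chromosome 4, with 19 and 5, the densest stretch of 65.2 kb held no H3K9me3 peak. At 10 to 11 Mb of chromosome 19 (24 and 13) it was 163 kb long, and at 79 to 80 Mb of chromosome 11 (21 and 10) 93.1 kb. At 23 to 24 Mb of chromosome 5 (22 and 13) it was 74.0 kb long and held the strongest lost peak of the window (23212248 to 23217616, score 1784), which lay on H3K9me3. Compact and wider windows had similar shares of WT H4K20me3 peaks on H3K9me3, 26.2% and 27.2%.

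Runs of neighbouring peaks were then counted over the whole of chromosomes 1 to 19. A run is a series of WT H4K20me3 peaks with gaps of at most 10 kb. In the windows 319 of 1153 WT peaks (27.7%, interval 25.1 to 30.3%) stood in a run of 4 or more. Over all of chromosomes 1 to 19 the share was 6.78%, and in 362 other windows with at least 9 WT peaks, the lowest number in the 64, it was 6.91% (interval 6.20 to 7.66%). Those 362 held 13.3 WT H4K20me3 peaks per window, against 18.0 in the 64. Here and below they are thus not matched to the 64 in density. Counting lost peaks per window favours windows with runs that are lost, so the share in the 64 is a description.

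The longer the run, the fewer of its peaks were kept. In the windows the share was 54.9% for peaks that stood alone (241 of 439), 38.3% in runs of 2, 18.3% in runs of 3 and 7.21% in runs of 4 or more (23 of 319, interval 4.63 to 10.6%). With gaps of up to 20 kb this last share was 14.7%, and with windows shifted by 500 kb it was also 14.7%. The order was the same outside the windows, where 75.4% of single peaks and 38.0% of those in runs of 4 or more were kept (165 of 434, interval 33.4 to 42.8%). Peaks off H3K9me3 had the same order: in the windows 63.6% of single ones were kept and 10.2% of those in runs of 4 or more (19 of 186, interval 6.26 to 15.5%), and outside 79.4% and 46.0%. Keeping also rose with score, from 12.1% in the lowest quartile of H4K20me3 score to 62.4% in the highest in the windows. Outside the windows it rose from 32.7% to 93.8%. Runs were not split by score, so run length and score cannot be told apart here. Kept and lost peaks come from the lists that chose the windows, and the rule favours windows with runs that are lost. The shares kept inside the windows, and their distance from those outside, are therefore a description.

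The windows held 60 whole runs of 4 or more, and 41 of these had no kept peak. Outside, 27 of 93 runs had none. Of the 21 runs of 6 or more in the windows, 15 had no kept peak, and of the 15 outside, 4 had none. Runs with many peaks were thus found on both sides of the rule. A run of 8 over 17.2 kb on chromosome 5 (139047384 to 139064588) was lost whole in a window that lost 7 peaks, and a run of 6 over 31.7 kb on chromosome 17 (34046496 to 34078226) was kept whole. Both were chosen after their values were seen.

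**Figure D3:**
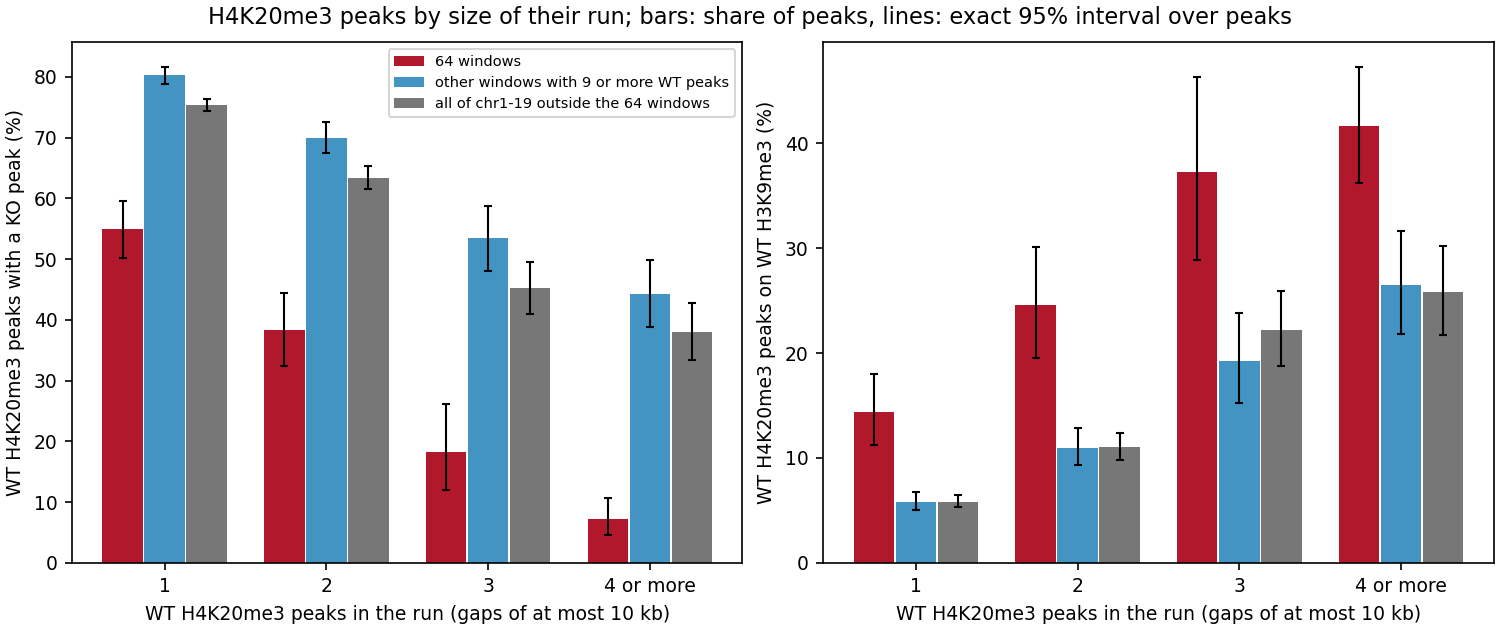
Share of WT H4K20me3 peaks with a KO peak (left, percent) and share that also carries WT H3K9me3 (right, percent), by the number of peaks in their run. Bars show the 64 windows, other windows with at least 9 WT peaks, and everything on chromosomes 1 to 19 outside the 64, and lines are exact 95% intervals over peaks. The share kept falls from 54.9 to 7.21% in the windows while the share on H3K9me3 rises from 14.4 to 41.7%.

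H3K9me3 was not used to choose the windows. In WT cells 309 of the 1153 H4K20me3 peaks in them lay on an H3K9me3 peak (26.8%, interval 24.3 to 29.5%). The share was 10.7% over chromosomes 1 to 19, 8.85% outside the windows (881 of 9951, interval 8.30 to 9.43%) and 9.57% in the other windows with at least 9 WT peaks (interval 8.75 to 10.4%). Without the windows of chromosomes 4 and 10 that hold most H3K9me3 peaks, it was 24.8%. Across chromosomes 1 to 19, H4K20me3 peaks on H3K9me3 were mostly lost, so a high share in windows chosen for loss is not independent of the choice.

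The share on H3K9me3 was also counted by quartile of H4K20me3 score. Outside the windows it was 13.2%, 10.7%, 6.50% and 5.30% from the lowest quartile to the highest. Inside, it was 25% in the lowest (99 of 396, interval 20.8 to 29.6%), then 25.7% and 23.7%, and 35.2% in the highest (74 of 210, interval 28.8 to 42.1%). The first 3 quartiles thus lay close together, and the intervals of the lowest and the highest overlap. In the highest quartile outside the windows 97.6% of peaks off H3K9me3 were kept, so a rule that asks for loss favours strong peaks on H3K9me3, and the shares are a description.

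**Figure D4:**
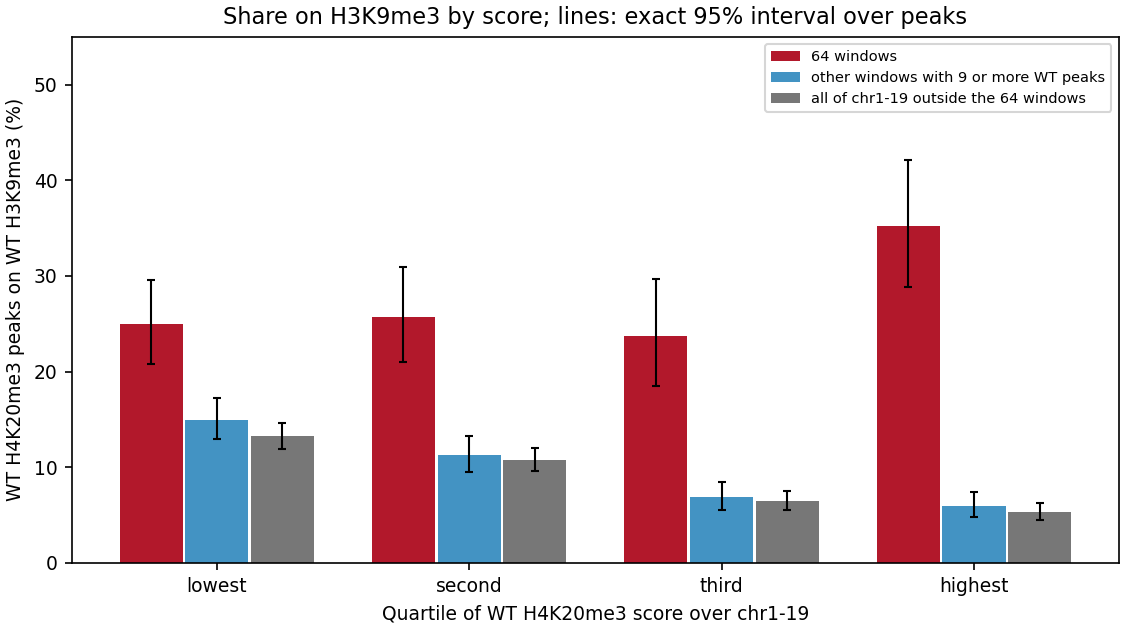
Percent of WT H4K20me3 peaks that overlap WT H3K9me3, by quartile of H4K20me3 score over chromosomes 1 to 19, in the 64 windows, in other windows with at least 9 WT peaks and in everything outside the 64. Lines are exact 95% intervals over peaks, and the share reaches 35.2% in the highest quartile in the windows and 5.30% outside.

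Loss was not limited to peaks on H3K9me3. Of the 763 lost peaks, 299 lay on a WT H3K9me3 peak (39.2%, interval 35.7 to 42.8%) and 464 did not. Lost peaks off H3K9me3 were the larger group in 44 windows, those on it in 15, and both were equal in 5. On H3K9me3, 10 of 309 peaks were kept (3.24%, interval 1.56 to 5.87%), and off it 380 of 844 were (45.0%, interval 41.6 to 48.5%). Outside the windows these shares were 8.97% and 75.1%. By quartile of score, 15.5% of peaks off H3K9me3 were kept in the lowest (46 of 297) and 91.9% in the highest (125 of 136), so the strong peaks off H3K9me3 were mostly kept in the windows too.

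Peaks off H3K9me3 that were lost stood nearer to it than those kept. Of the 464, 220 lay within 10 kb of a WT H3K9me3 peak (47.4%, interval 42.8 to 52.1%), at a median distance of 11.0 kb. Of the 380 kept, 83 did (21.8%, interval 17.8 to 26.3%), at a median of 31.1 kb. They also differed in size: lost ones had a median score of 83.9 and length of 598 bp, and kept ones 236 and 849 bp. The same contrast was present outside the windows, where 23.0% of lost and 9.30% of kept peaks off H3K9me3 lay within 10 kb.

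The 10 kept peaks on H3K9me3 lay in 6 of the windows. Their WT scores ran from 64.2 to 2216 with a median of 460, and their KO scores from 50.6 to 509 with a median of 129. Of the 10, 4 lay on a KO H3K9me3 peak as well. The window at 145 to 146 Mb of chromosome 4 held 4 of them. At 64 to 65 Mb of chromosome 17, a pair of neighbours (64146248 to 64148231 and 64149019 to 64151518) was kept, with WT scores of 860 and 1282 and KO scores of 346 and 135. Scores grow with the depth of a library, which is unknown, so their size in WT and in KO cannot be compared as amounts.

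H3K9me3 itself was nearly absent from the KO list in the windows. Of 1550 WT peaks, 18 overlapped a KO peak (1.16%, interval 0.690 to 1.83%). Outside, 325 of 12635 did (2.57%, interval 2.30 to 2.86%). Over chromosomes 1 to 19, 97.6% of WT H3K9me3 peaks were lost, so loss in the windows is near the background. The share kept in the other windows with at least 9 WT H4K20me3 peaks was 1.71% (interval 1.32 to 2.18%), an interval that overlaps that of the 64. No H3K9me3 peak was kept in 53 of the windows. Covered length of H3K9me3 in the windows went from 1240 to 34.0 kb.

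The windows were dense in H3K9me3 before the loss. They held 24.2 WT peaks per window (exact Poisson interval 23.0 to 25.5), with a range from 2 to 232 and a median of 17. Without the 2 densest, on chromosomes 4 and 10, it was 19 per window. Outside, the number was 5.51, and in the other windows with at least 9 WT H4K20me3 peaks 10.5 (interval 10.2 to 10.8). Of the WT H3K9me3 peaks in the windows, 308 carried H4K20me3 (19.9%, interval 17.9 to 21.9%), a share of 8.88% over chromosomes 1 to 19 and 7.53% outside.

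The H3K9me3 peaks that were kept were few and lay in 11 of the windows. Of the 18, 6 lay in the window of chromosome 4 at 145 to 146 Mb, which held 232 of the 1550 WT H3K9me3 peaks. Another 3 lay next to each other at 152 to 153 Mb of chromosome 2, from 152920240 to 152925800. The highest-scoring of the 18 (145422680 to 145430752 on chromosome 4) had a WT score of 2379 and a KO score of 196. At 66 to 67 Mb of chromosome 17, a kept H3K9me3 peak (66309570 to 66312753, WT score 1184, KO score 481) carried H4K20me3 in WT and not in KO. Of the 45 KO H3K9me3 peaks in the windows, 25 were new (55.6%, interval 40 to 70.4%), against 88.7% over chromosomes 1 to 19. In the other windows with at least 9 WT H4K20me3 peaks, 222 of 284 were new (78.2%, interval 72.9 to 82.8%).

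The KAP1 list was short, with 32 peaks in the windows and 329 in the 2293 windows outside. Most windows on either side therefore held none, and KAP1 may be bound below the threshold of the caller. The number per window was higher than outside, and its interval narrowly overlapped that of other windows rich in H4K20me3. Overlap of intervals does not show that 2 numbers are equal, and the difference was not tested. The 32 peaks lay in 23 windows, 17 of them with a single peak, and 41 windows had none. This gave 0.500 per window (exact Poisson interval 0.342 to 0.706). Outside it was 0.143 (interval 0.128 to 0.160), and in the other windows with at least 9 WT H4K20me3 peaks 0.287 (interval 0.235 to 0.348). With chromosome 17 left out of every group it was 0.365 (19 in 52 windows, interval 0.220 to 0.571), 0.142 outside and 0.278 (interval 0.225 to 0.340) in the other windows with at least 9 WT peaks, and the first and last of these intervals overlap. With a score of at least 100 it was 0.286 (4 in 14 windows). This setting filters the KAP1 list too, and no number for other windows was computed with it, so it has no comparison. Of the WT H4K20me3 peaks in the windows, 15 lay on KAP1 (1.3%, interval 0.730 to 2.14%), a share of 0.594% over chromosomes 1 to 19.

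On WT H3K9me3 lay 25 of the 32 KAP1 peaks (78.1%, interval 60.0 to 90.7%), and 135 of 329 outside the windows (41.0%, interval 35.7 to 46.6%). On WT H4K20me3 lay 14 of 32 (43.8%, interval 26.4 to 62.3%) and 48 of 329 outside (14.6%, interval 11.0 to 18.9%). The other windows with at least 9 WT H4K20me3 peaks held 104 KAP1 peaks. Of these, 49 lay on WT H3K9me3 (47.1%, interval 37.2 to 57.2%) and 25 on WT H4K20me3 (24.0%, interval 16.2 to 33.4%). For H4K20me3 this interval overlaps that of the 32 peaks, and for H3K9me3 it does not. Neither difference was tested, and overlap does not show that the shares are equal. Of the 32 peaks, both marks were present at 13 and no mark at 6. Of the 32 positions, 4 lay on a KO H3K9me3 peak and 1 on a KO H4K20me3 peak. The latter was at 145426714 to 145427555 on chromosome 4, with a KAP1 score of 65.0, in the kept H3K9me3 peak named above.

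The 3 strongest KAP1 peaks of the windows overlapped lost H4K20me3 peaks. The first was on chromosome 2 (157385094 to 157386547, score 2112), on an H4K20me3 peak of 6612 bp (157379463 to 157386074, score 1834) and an H3K9me3 peak of 11407 bp (157379229 to 157390635, score 3100), both lost. On the same H3K9me3 peak, another H4K20me3 peak at 157388188 to 157392233 was kept, with a WT score of 1324 and a KO score of 254. The next was on chromosome 17 (87524611 to 87525273, score 669), where 6 lost peaks and 1 kept peak lay within 20 kb. On chromosome 5 a KAP1 peak (23979825 to 23980956, score 575) had 1 lost peak within 20 kb and no kept one. On chromosome 2 another (152512315 to 152512923, score 296) had 6 lost and 1 kept.

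Further KAP1 peaks of the windows also had a lost H4K20me3 peak on or near them. On chromosome 16 a KAP1 peak (17806837 to 17807696, score 368) lay on a lost H4K20me3 peak with a score of 1084. On chromosome 17 the peak at 56564657 to 56565360 (score 264) lay on a lost H4K20me3 peak with a score of 431. At 125786764 to 125787346 of chromosome 2 (score 170), 5 lost peaks lay within 20 kb, and at 149310790 to 149311499 of chromosome 6 (score 148), 3 did. A lost H4K20me3 peak of the same window lay within 20 kb of 19 of the 32 KAP1 peaks (59.4%, interval 40.6 to 76.3%), and a kept one within 20 kb of 15 (46.9%, interval 29.1 to 65.3%). In the other windows with at least 9 WT peaks these shares were 28.8% and 49.0% of 104 KAP1 peaks, and outside the 64 windows 16.7% and 27.4% of 329. The windows were chosen for lost peaks, so a high share near KAP1 is partly set by the choice. In contrast, the KAP1 peak on chromosome 8 at 86192159 to 86192821 (score 390) had no lost peak within 20 kb, and that at 59707110 to 59707503 of chromosome 17 (score 62.7) stood 110 kb from any WT H4K20me3 peak. The window with the most KAP1 peaks, 4, was at 17 to 18 Mb of chromosome 17, where 1 of them (17176644 to 17177793, score 103) lay on H4K20me3.

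Concentrated loss was found in windows with and without a KAP1 peak. In the 23 windows with KAP1, 184 of 492 WT H4K20me3 peaks were kept (37.4%, interval 33.1 to 41.8%), and in the 41 without, 206 of 661 (31.2%, interval 27.6 to 34.8%). On H3K9me3 lay 31.7% (interval 27.6 to 36.0%) and 23.1% (interval 20.0 to 26.6%) of the WT peaks. Median numbers of WT H3K9me3 peaks were 22 and 17. The intervals for keeping overlap, and the difference was not tested.

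New H4K20me3 peaks were a small share of the KO peaks in the windows. Of the 435 KO peaks, 45 had no WT peak (10.3%, interval 7.65 to 13.6%), against 16.0% over chromosomes 1 to 19 and 13.3% (interval 12.3 to 14.4%) in the other windows with at least 9 WT peaks. A rule that asks for few KO peaks favours a low number here. New peaks lay in 23 windows, with 9 of the 45 at 145 to 146 Mb of chromosome 4. Their scores ran from 50.3 to 161, with a median of 66.5, and 12 of them reached 100. The highest-scoring was on chromosome 17 (71947433 to 71948638), at the other end of its window from the lost run.

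The windows were unevenly spread over chromosomes. Over chromosomes 1 to 19 they were 64 of 2357 windows with a peak (2.72%). Chromosome 17 held 12 of 93, chromosome 8 held 8 of 127 and chromosome 16 held 5 of 90. Chromosome 13 held 5 of 116, chromosome 3 held 6 of 156 and chromosome 2 held 6 of 179. Of these, chromosomes 2 and 3 were closest to the share over all. Chromosomes 7, 14 and 18 held none, on 134, 115 and 86 windows with a peak. KO peaks of H4K20me3 divided by WT peaks gave 0.653 for the whole of chromosome 17, 0.687 for 8, 0.804 for 2, 0.631 for 3, 0.549 for 13 and 0.613 for 16. For chromosomes 7, 14 and 18 it gave 1.04, 0.954 and 1.45. These ratios include the windows, so the rule sets part of them. Outside the windows, 66.8% of WT peaks were kept on chromosome 17, 63.9% on 8, 74.3% on 2, 59.9% on 3, 54.8% on 13 and 56.6% on 16. On chromosomes 7, 14 and 18, with no such window, 74.9%, 75.7% and 88.2% were kept, so chromosome 2 with 6 windows was close to chromosomes 7 and 14. On chromosome 17, 31.1% of WT peaks in the windows were kept (73 of 235, interval 25.2 to 37.4%), and 34.5% in the windows of all other chromosomes (317 of 918, interval 31.5 to 37.7%).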

How the data were processed

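Peak lists of 5 ChIP-seq libraries were analysed, and the 3 input samples were not analysed here. Per the submitters' processing notes, the authors used CASAVA 1.82, Bowtie2 2.2.1 and MACS 1.4 with build mm9. Per the file headers, the KAP1 list compared 1 KAP1 library with 1 WT MEF library. For the histone lists, the control and caller settings are not stated in the labels used here. Each deposited score comes from the authors' caller, has no stated unit and is at least 50. It ranks peaks within a list.

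Peaks were placed by midpoint in windows of 1 Mb from position 0 and compared by overlap of at least 1 bp in Python 3.11.15 (pandas 2.3.3, numpy 2.4.6). Positions are printed counting from 1. Exact intervals at 95% came from scipy 1.17.1, and figures from matplotlib 3.10.9. The counting was tested on simulated lists. With 1 library per group no test between genotypes was possible. The named windows are all 64. In the 5 with the largest loss and those with KAP1, the planned peaks are the highest-scoring and highest-scoring kept H4K20me3 peaks, the longest H3K9me3 peak and all KAP1 peaks, and those that bear on a result are printed. Windows, runs and comparisons were chosen with earlier results of these data known. No genome or annotation of build mm9 was used, so no genes or sequences are given.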

Additional observations from a re-analysis of the deposited data

How the results depend on the processing

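Of 61 alternative values for 7 results, 41 stayed within 1.5 times the number of windows or within the interval of the reported value, and 20 did not. The number of windows was 126 with a loss of 6 or more, 37 with 10 or more, 14 with a score of at least 100, 13 with peaks within 5 kb merged and 15 with equal numbers of H4K20me3 peaks. Fewer peaks in the WT list, or a lower threshold, change this number by construction. The share of WT H4K20me3 peaks kept was 40.3% with a loss of 6 or more and 28.1% with 10 or more. The share on H3K9me3 was 22.0% with a loss of 6 or more, 18.0% with a score of at least 100, 22.4% where 50% or more of the peak had to overlap and 33.1% within 1 kb. H3K9me3 peaks were kept in 2.17% with a score of at least 100, 2.08% with merging and 0.645% where 50% or more had to overlap. KAP1 peaks numbered 0.286 per window with a score of at least 100 (4 in 14 windows). New H4K20me3 peaks made up 7.55% of KO peaks with windows shifted by 500 kb and 7.5% with a score of at least 100. In runs of 4 or more, 11.4% of WT peaks were kept with a loss of 6 or more, 14.7% with the shift and 14.7% with gaps of 20 kb. The cause was not tested for the other values. Leaving out chromosome 17, other gaps and all alternatives for runs were added after seeing the data, and for runs the merging and the score minimum were not run. No paired analysis was possible because each group has 1 library. Depth is unknown and limits which weak peaks could be called in either genotype.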
